A study of Mus musculus with 24 samples.

Results

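The brain response to drinking sucrose was measured by setting the 4 brain libraries of sucrose-drinking mice against the 4 brain libraries of water-drinking mice, with genotype as a covariate. The 8 libraries were chosen by tissue and drink in the sample titles, from 24 libraries in the whole series. Each drink was represented by 2 db/db libraries and 2 db/+ libraries. All came from male mice of the strain given as C57/BL6, and the only treatment length in the labels is 16 weeks. db/db mice carry a mutation of the leptin receptor that removes its long, signalling form, and db/+ mice keep 1 intact copy. The sucrose concentration, the age of the mice and the part of the brain taken are not given in the labels. Nothing in the labels says that the 2 libraries of a group came from separate animals, so the p-values measure only the spread between these libraries. Titles gave the genotype, although another label field lists db/+ for the 4 libraries titled db/db.

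Sucrose is cleaved in the gut to glucose and fructose, and its intake reaches the brain through taste, gut signals and blood glucose. Immediate early genes are transcribed within minutes of neuronal firing, without the need for new protein, and are widely read as a trace of recent neuronal activity. They include transcription factors (Fos, Junb, the Egr family, Npas4, Nr4a1), the synaptic protein Arc, and phosphatases that switch off MAP kinases (the Dusp family).

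Across 23156 genes tested, no gene passed an adjusted p of 0.05 in the edgeR quasi-likelihood test of sucrose against water (0% called), and the smallest adjusted p was 0.943. Without adjustment, 997 genes had a p under 0.05, which is 4.31% of those tested. DESeq2, run as an alternative on the same 8 libraries, called 41 genes, 22 higher and 19 lower in sucrose (0.177%). All 4 sucrose libraries lay above all 4 water libraries for 323 genes (1.39%) and below them for 307 genes (1.33%). On simulated data, a larger share of the genes called by DESeq2 than of those called by edgeR was unchanged. For DESeq2 that share of calls was above the nominal 0.05. The simulated counts were drawn with edgeR's own estimates of spread and held no library that stood apart, unlike these data. DESeq2 adjusted p-values are therefore given below as values of an alternative and not as passed tests. The measured differences that follow are descriptions of these libraries unless an edgeR call is named.

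Totals ran from 58287665 to 77772849 estimated counts per library, and 28711 to 30180 genes were above 0. Replicates correlated across genes at 0.986 to 0.988. Brain markers were abundant in every library. Mbp, a myelin protein, ran from 3852 to 4160 CPM (counts scaled to library size) in sucrose libraries, against 3642 to 4252 CPM in water libraries. Summed over 12 markers of glutamatergic neurons, levels ran from 4672 to 4994 CPM in sucrose libraries and from 4619 to 5366 CPM in water libraries. Lepr, the leptin receptor gene, stood at 2.77 and 2.01 CPM in db/db sucrose and 3.88 and 3.30 CPM in db/+ sucrose libraries, against 2.32 and 2.76 CPM in db/db water and 3.57 and 3.37 CPM in db/+ water libraries. Its gene count pools all isoforms and does not check the mutation.

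One library stood apart. In db/+ water replicate 1, Pcp2, a protein of cerebellar Purkinje cells, was at 17.3 CPM, whereas the other 3 water libraries held 69.3 to 72.5 CPM and the 4 sucrose libraries 65.0 to 68.6 CPM. The library was the lowest of the 8 for 75% of the 12 Purkinje cell markers, for 76.9% of the 13 cerebellar granule cell markers and for 75% of the 16 choroid plexus markers, against 14.5% of all genes tested. Gabra6, a GABA receptor subunit of granule cells, was at 32.2 CPM there and at 89.9 to 129 CPM in the other 7 libraries. Pcp4, which is also made by neurons outside the cerebellum, was at 265 CPM there and 253 to 274 CPM in the others. The same library was the highest of the 8 for 19 of the 27 immediate early genes, or 70.4%, against 13.6% of all genes tested. Other neuronal lists were also highest there more often than that, at 58.3% of glutamatergic, 57.1% of thalamic, 42.9% of GABAergic and 40% of striatal neuron markers. The library was also lowest of the 8 for 21.4% of thalamic and 28.6% of GABAergic markers, against 14.5% of all genes, and for 8.33% of glutamatergic ones. By summed level it was the highest of the 8 for glutamatergic markers (5366 CPM). It was the lowest for GABAergic (1735 CPM) and hippocampal neuron markers (778 CPM). Less cerebellum in the sample and less RNA per cerebellar cell cannot be told apart in bulk tissue. The immediate early gene list and the cerebellar lists are given below with and without this library, as are several single genes. Other log2 differences below are with all 8 libraries unless stated. Some of these small differences change sign without the library, such as Drd1 from -0.05 to 0.05 and Gfap from 0.06 to -0.004.

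**Figure D1:**
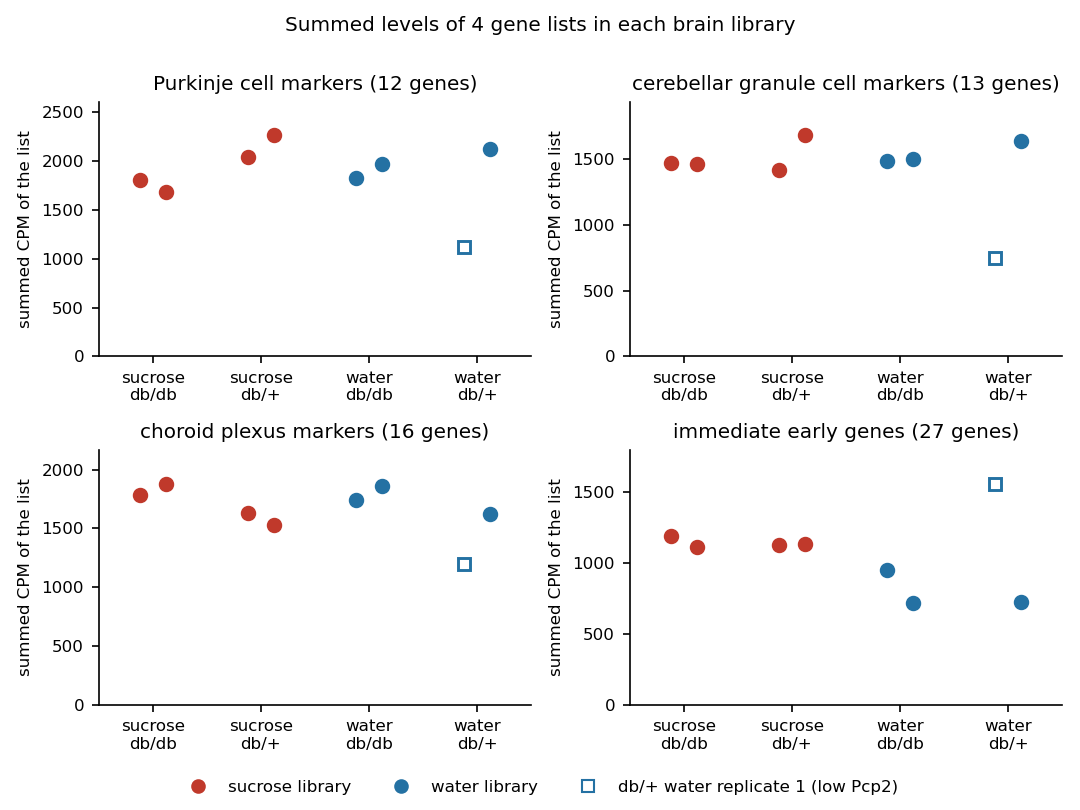
Summed CPM (y axis) of 4 gene lists in each of the 8 brain libraries, by drink and genotype (x axis), where each point is 1 library and the open square is db/+ water replicate 1. That library is lowest for the Purkinje, granule cell and choroid plexus lists (1123, 746 and 1199 CPM) and highest for the immediate early genes (1563 CPM).

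The 27 immediate early genes were all tested, since each passed the filter on low counts. Their summed level was 1193 and 1112 CPM in db/db sucrose and 1131 and 1138 CPM in db/+ sucrose libraries. In water it was 949 and 718 CPM in db/db libraries, and 1563 CPM in db/+ replicate 1 and 725 CPM in db/+ replicate 2. The 4 sucrose sums were close together, above 3 of the 4 water sums and below that of db/+ water replicate 1. The part of the low cerebellar and high glutamatergic neuron markers of that library in its immediate early gene levels was not tested.

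The promoters of 4 members are shown because Fos, Nr4a1 and Junb carried the pattern that turned on 1 water library and Dusp5 the one that did not. Each sequence runs from 250 to 51 bases before the gene's start in RefSeq on GRCm38.p6, a build other than the one named for the counts, and is written 5′ to 3′ on the gene's strand. The stretches are chr12:85473640-85473839 (plus strand), chr15:101266596-101266795 (plus strand), chr8:84978799-84978998 (minus strand) and chr19:53528895-53529094 (plus strand). Capitals mark TGACG on either strand, the core of the cyclic AMP response element bound by CREB, and the CArG box bound by serum response factor.
Fos: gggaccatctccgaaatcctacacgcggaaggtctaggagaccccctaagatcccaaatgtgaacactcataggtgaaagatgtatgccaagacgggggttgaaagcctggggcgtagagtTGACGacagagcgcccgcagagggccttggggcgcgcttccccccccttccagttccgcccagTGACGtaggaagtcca
Nr4a1: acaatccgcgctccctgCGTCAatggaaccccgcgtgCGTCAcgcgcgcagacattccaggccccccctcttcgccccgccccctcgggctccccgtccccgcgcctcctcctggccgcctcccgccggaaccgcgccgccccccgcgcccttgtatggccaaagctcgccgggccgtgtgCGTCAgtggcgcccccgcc
Junb: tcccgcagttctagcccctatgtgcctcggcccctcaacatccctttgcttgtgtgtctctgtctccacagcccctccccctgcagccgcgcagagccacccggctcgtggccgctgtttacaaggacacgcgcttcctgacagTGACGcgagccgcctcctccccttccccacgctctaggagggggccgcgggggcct
Dusp5: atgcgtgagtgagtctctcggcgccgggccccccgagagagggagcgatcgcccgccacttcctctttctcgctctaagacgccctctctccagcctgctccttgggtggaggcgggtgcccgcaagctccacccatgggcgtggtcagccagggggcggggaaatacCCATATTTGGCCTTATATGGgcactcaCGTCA
TGACG, searched on both strands, occurred in this 200-base window in 15 of the 21 immediate early genes that had a promoter in the RefSeq table, or 71.4%, and in 19.2% of 14496 tested genes. For this and the motifs below, a gene with several listed starts was counted where any start had the match. Among the 15, Egr2 had 5 listed starts, Maff 3 and Homer1 2. The number of starts per gene was not matched between the 2 sets. The full element TGACGTCA was found in 2 of the 21, against 1.36% of tested genes, and every such match also holds TGACG. Dusp5 carried a pair of adjoining CArG boxes. A CArG box was found in 2 of the 21 genes, Dusp5 and Egr2, and in 1.23% of tested genes. Unlike Dusp5, Egr2 was high in db/+ water replicate 1, at 8.27 CPM against 0.507 to 1.535 CPM in the other water libraries. The 2 genes with a box thus did not share 1 pattern. The AP-1 element TGACTCA was found in 0 of the 21 and in 3.48%. Bases farther than 250 before the start were not searched, so the lack of a match holds only for this window. A match says only that these letters are present, and immediate early genes are long known as targets of CREB and serum response factor.

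Among the transcription factors, Fos, a subunit of AP-1, was at 27.8 and 21.6 CPM in db/db sucrose and 23.2 and 23.3 CPM in db/+ sucrose libraries. The db/db water libraries had 14.7 and 7.93 CPM, and the db/+ ones 51.9 and 5.85 CPM. All 4 sucrose libraries were above 3 water libraries and below the fourth, db/+ replicate 1. The log2 difference was 0.41 with all 8 libraries (95% interval -1.15 to 1.96) and 1.46 without that library (0.74 to 2.19). Neither passed in edgeR (quasi-likelihood adjusted p = 0.963 and 0.928), whereas DESeq2 without that library gave an adjusted p of 0.000522.

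Nr4a1, an orphan nuclear receptor, was at 62.5 and 47.04 CPM in db/db sucrose and 57.3 and 63.7 CPM in db/+ sucrose libraries. The db/db water libraries held 21.6 and 28.7 CPM, and the db/+ water libraries 118 and 21.2 CPM. Its log2 difference was 0.46 with all 8 libraries (-0.81 to 1.72) and 1.28 without db/+ water replicate 1 (0.87 to 1.69), where the edgeR quasi-likelihood adjusted p was 0.711 and the DESeq2 adjusted p 1.17e-07. Arc, which binds and moves synaptic glutamate receptors, was likewise highest in db/+ water replicate 1. Its sucrose libraries held 93.2 and 88.3 CPM in db/db and 114 and 117 CPM in db/+ brain, against 49.9 and 35.1 CPM in db/db water and 219 and 38.2 CPM in db/+ water libraries. Its log2 difference was 0.47 with all libraries (-0.78 to 1.72) and 1.29 without the library of low Pcp2 (0.90 to 1.69), with an edgeR quasi-likelihood adjusted p of 0.711 and a DESeq2 adjusted p of 3.98e-08.

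Egr1, a zinc finger factor induced by firing, stood at 165 and 153 CPM in db/db sucrose and 129 and 126 CPM in db/+ sucrose libraries, against 119.8 and 52.8 CPM in db/db water and 202 and 62.7 CPM in db/+ water libraries. Its log2 difference was 0.42 with all libraries and 0.94 without db/+ water replicate 1, and it passed in neither edgeR nor DESeq2. Junb, another AP-1 subunit, was at 66.3, 52.0, 60.6 and 60.8 CPM in the sucrose libraries, against 44.2 and 40.2 CPM in db/db water and 105 and 33.0 CPM in db/+ water libraries. The log2 difference of Junb was 0.15 with all libraries and 0.65 without the same library (0.34 to 0.95). For Npas4, a factor specific to neurons, the sucrose libraries held 5.59 to 13.03 CPM and the water libraries 4.95 to 25.3 CPM, and its log2 difference changed sign, at -0.21 with all libraries and 0.35 without db/+ water replicate 1.

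**Figure D2:**
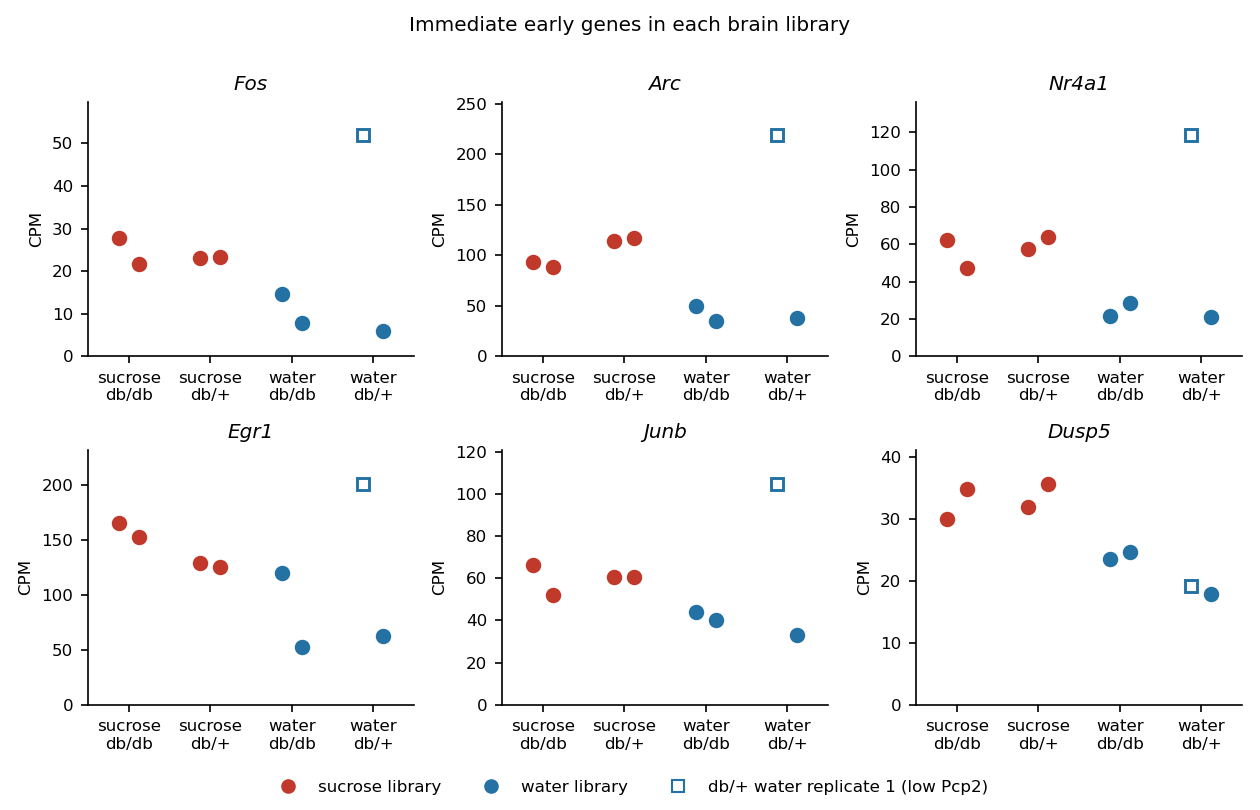
CPM (y axis) of 6 immediate early genes in each brain library, by drink and genotype (x axis), where each point is 1 library and the open square is db/+ water replicate 1. For Fos, Arc, Nr4a1, Egr1 and Junb the square is the highest value and the other 3 water libraries are the lowest, while for Dusp5 all 4 water libraries (17.9 to 24.7 CPM) lie under all 4 sucrose libraries (29.9 to 35.7 CPM).

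Dusp5, a nuclear phosphatase of the MAP kinases ERK1/2 and itself induced by their signalling, was the one immediate early gene whose drinks did not overlap with all 8 libraries. Over all genes, sucrose lay wholly above water for 1.39% and wholly below for 1.33%. A count of 1 in 27 cannot be told apart from these shares, so Dusp5 is described as a single gene. Its level was 29.9 and 34.8 CPM in db/db sucrose and 31.8 and 35.7 CPM in db/+ sucrose libraries, against 23.5 and 24.7 CPM in db/db water and 19.1 and 17.9 CPM in db/+ water libraries. The log2 difference was 0.65 (95% interval 0.38 to 0.91), 0.43 within db/db and 0.87 within db/+. It did not pass in edgeR (quasi-likelihood adjusted p = 0.943), and the DESeq2 adjusted p was 0.00133. Without db/+ water replicate 1 the log2 difference was 0.62. The 4 brazzein brain libraries held 32.2 to 34.1 CPM, within the range of the sucrose libraries.

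Over the whole list, 0 of the 27 were called by edgeR with all 8 libraries. An unadjusted p under 0.05 in the higher direction was found for 1, against 2.21% of all genes. DESeq2 called 1, Dusp5, against 0.177% of all genes. The median log2 difference was 0.22 beside -0.004 over all genes, and 22 of the 27 were above 0. Leaving out db/+ water replicate 1 moved the median to 0.43 and the number above 0 to 26, Jun being the exception at -0.04. In that fit 0 were called by edgeR, 16 had an unadjusted p under 0.05 in the higher direction, against 2.83% of all genes, and DESeq2 called 8, all higher, against 0.51% of genes called. The 8 were Fos, Fosb, Fosl2, Junb, Egr2, Arc, Nr4a1 and Dusp5. All 4 sucrose libraries were above the 3 remaining water libraries for 14 of the 27, against 3.51% of genes. The library was picked for its low Pcp2 but is also the one with the highest values for 19 of the 27, so leaving it out lowers the water mean by construction, and these counts give no support for a difference by drink. Leaving out any other single library gave medians between 0.09 and 0.28.

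**Figure D3:**
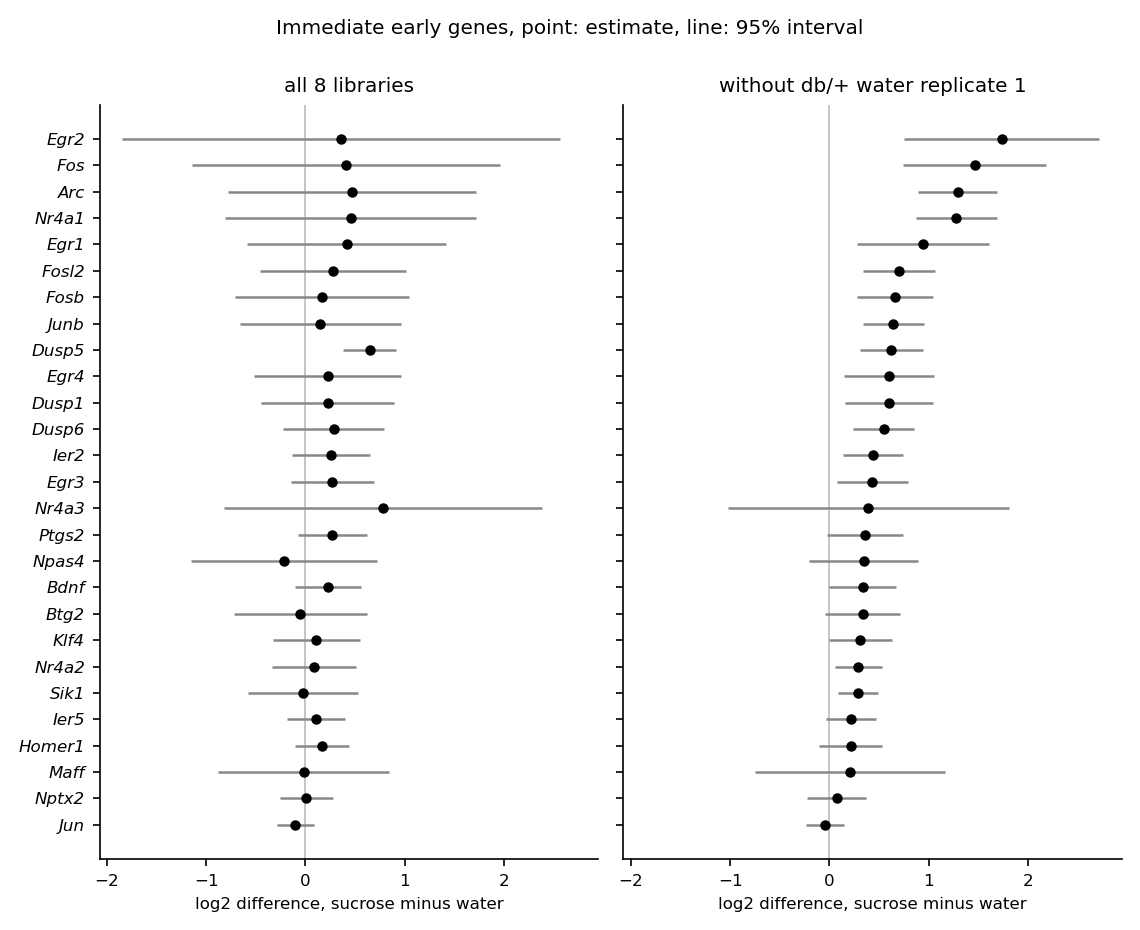
Log2 difference of sucrose minus water (x axis) for the 27 immediate early genes (y axis), with all 8 libraries on the left and without db/+ water replicate 1 on the right, where points are edgeR estimates and lines 95% intervals. With all libraries the interval of Dusp5 alone lies above 0, and without that library Fos, Arc, Nr4a1 and Egr2 lie between 1.28 and 1.74.

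Split by genotype, the drink difference of the immediate early genes had a median log2 of 0.32 in db/db brain, with 24 of 27 above 0, and of -0.05 in db/+ brain, with 11 of 27 above 0. The db/+ value turned on its water pair, standing at 0.60 with 27 of 27 above 0 without replicate 1, at -0.43 with 4 of 27 above 0 without replicate 2, and at 0.02 with replicate number as a block. In the interaction test of genotype and drink, no member passed, and Fos had an edgeR quasi-likelihood adjusted p of 0.882. Across all 23156 genes the drink differences of the 2 genotypes, which share no library, had the same sign for 49.4% of genes and a Pearson correlation across genes, which are not independent replicates, of 0.0184.

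The cerebellar medians depended on the library of low Pcp2. Purkinje cell markers had a median log2 difference of 0.21, with 10 of 12 above 0, and of -0.03, with 4 of 12 above 0, without db/+ water replicate 1. Car8, a carbonic anhydrase-related protein of Purkinje cells, was at 295, 302, 349 and 353 CPM in sucrose libraries, against 304, 327, 92.7 and 335 CPM in water libraries. For the granule cell markers the median was 0.19 with all libraries and 0.01 without it, and for the choroid plexus markers 0.10 and -0.01. Leaving the library out thus lowered the cerebellar and choroid medians and raised that of the immediate early genes.

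Of 37 lists, 33 had a median log2 difference between -0.13 and 0.13, a range used only for description. The sweet taste receptor pathway (-0.128) and the inflammation and interferon response (-0.121) lay just inside it. In none of the 37 was a member called by edgeR, and in 2 a member was called by DESeq2, which called 0.177% of all genes. These members were Dusp5 and Eomes, a transcription factor of the olfactory bulb list. Eomes was at 8.94, 8.45, 6.40 and 5.45 CPM in sucrose libraries, against 6.09, 3.30, 2.31 and 3.45 CPM in water libraries, a log2 difference of 0.96. The fourth list past that range, pituitary and pineal markers (median 0.25), held the growth hormone gene Gh at 0 to 312 CPM in sucrose and 0 to 7.55 CPM in water libraries, with 1 db/+ sucrose library at 312 CPM.

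**Figure D4:**
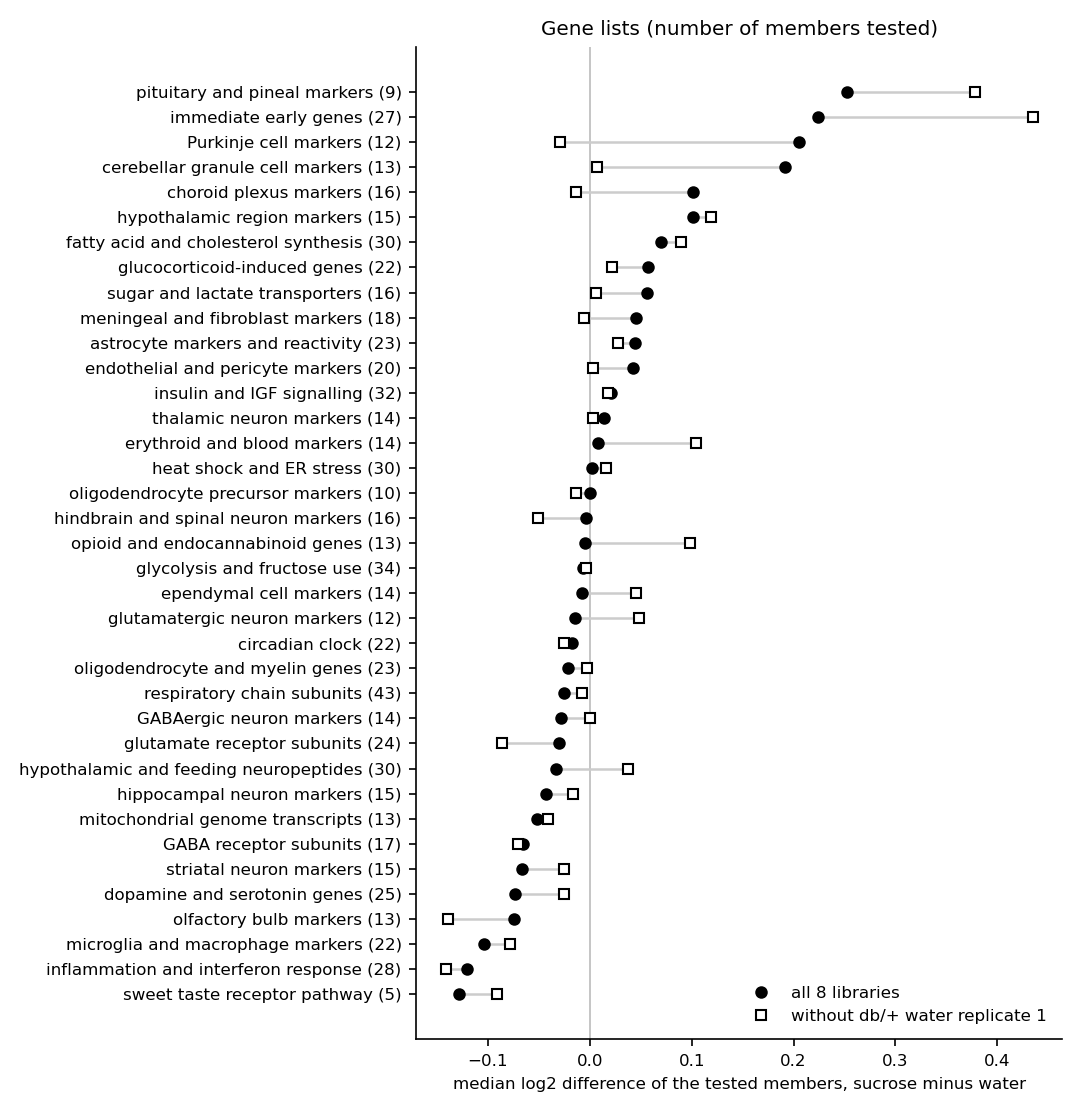
Median log2 difference of sucrose minus water (x axis) of the tested members of 37 gene lists (y axis, number tested in brackets), with all 8 libraries as filled circles and without db/+ water replicate 1 as open squares. The immediate early genes stand at 0.22 with all libraries and 0.43 without that one, and the Purkinje cell markers at 0.21 and -0.03.

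Among 30 hypothalamic and feeding genes, 14 were above 0 and 1 had an unadjusted p under 0.05, a share no larger than the 4.31% of all genes. That gene, given for its role, was Avp, which encodes the water-retaining hormone vasopressin. Its level was 20.1 and 28.0 CPM in db/db sucrose and 10.5 and 12.5 CPM in db/+ sucrose libraries. In water it was 34.1 and 53.4 CPM in db/db and 20.3 and 15.6 CPM in db/+ libraries. Both sucrose libraries were below both water libraries within each genotype, while the drinks overlapped over the pooled libraries. The log2 difference was -0.75 (95% interval -1.20 to -0.31), -0.69 without the library of low Pcp2, and did not pass (edgeR quasi-likelihood adjusted p = 0.943, DESeq2 0.102). Oxt, encoding oxytocin from neighbouring cells, had a log2 difference of -0.23 with an interval that includes 0.

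None of the appetite genes had an unadjusted p under 0.05. Npy, which drives feeding, was at 35.1 to 39.4 CPM in sucrose libraries and 38.6 to 45.9 CPM in water libraries. Its log2 difference was -0.16 (-0.35 to 0.04). Agrp was at 0.612 to 1.02 CPM in sucrose libraries and 0.641 to 0.760 CPM in water libraries. The log2 difference was 0.20 for Pomc, whose product restrains feeding, with an interval of -0.83 to 1.24, and 0.04 for Hcrt (orexin), with an interval of -0.26 to 0.35. Pmch, encoding melanin-concentrating hormone, differed by -0.09 (-0.43 to 0.25), Cartpt by -0.16 (-0.38 to 0.06) and Crh, the stress hormone releaser, by -0.07 (-0.45 to 0.31). Of these intervals, that of Pomc was the widest. Pomc was at 10.9 CPM in db/+ sucrose replicate 1 and at 1.74 to 3.30 CPM in the other sucrose libraries. In that replicate the pituitary and pineal markers summed to 378 CPM, against 9.63 to 12.2 CPM in the other sucrose libraries. A link between these levels was not tested.

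Of 25 dopamine and serotonin genes, 4 were above 0 with all libraries and 9 without db/+ water replicate 1. With all libraries, 1 of the 25 had an unadjusted p under 0.05, a share close to the 4.31% of all genes. All 4 sucrose libraries lay below all 4 water libraries for 2 of the 25, against 1.33% of all genes. Rgs9, a brake on dopamine receptor signalling in striatum, was at 57.7, 57.5, 61.6 and 60.1 CPM in sucrose libraries, against 67.6, 69.0, 64.2 and 64.5 CPM in water libraries, without overlap, and had a log2 difference of -0.16. Drd1 and Drd2, the main dopamine receptors, differed by -0.05 (-0.32 to 0.22) and -0.10 (-0.39 to 0.20). Th, the rate-limiting enzyme of dopamine synthesis, differed by -0.10 (-0.28 to 0.08), and Slc6a4, the serotonin transporter, by 0.01 (-0.19 to 0.20).

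Of 16 sugar and lactate transporters, none had an unadjusted p under 0.05, and 9 were above 0. Slc2a1, the glucose transporter of the blood-brain barrier, had a log2 difference of 0.14 (-0.08 to 0.35). Slc2a3, the neuronal one, stood within the range of the water libraries, 28.9 to 123 CPM, in all 4 sucrose libraries, and its interval was -0.86 to 1.18. Of 34 genes of glycolysis and fructose use, 16 were above 0. An unadjusted p under 0.05 was found for 1 in the higher and 1 in the lower direction, against 2.21% and 2.1% of all genes. Of the 8 sweet taste pathway genes, 5 passed the filter on low counts, and Gnat3, the taste G protein, was listed at 0 in all 8 libraries.

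Of 22 clock genes, 10 were above 0 and the median log2 difference was -0.02. Only 1 had an unadjusted p under 0.05, a share close to the 4.31% of all genes. That gene, Cry2, a repressor of the clock, was at 200, 153, 174 and 162 CPM in sucrose libraries, against 114, 108, 107 and 156 CPM in water libraries (log2 0.51, 95% interval 0.17 to 0.85). The lowest sucrose value was just under the highest water value. Dbp, a clock output gene, ran from 79.3 to 113 CPM in sucrose and from 39.1 to 98.0 CPM in water libraries. Its log2 difference of 0.57 had an interval that includes 0, and Per1, a core clock gene, differed by 0.11 (-0.16 to 0.38). The time of collection is not given in the labels.

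Sgk1 and Fkbp5, which glucocorticoids induce, had log2 differences of 0.47 (-0.24 to 1.18) and 0.03 (-0.36 to 0.42). The opioid peptide genes Penk and Pdyn differed by -0.02 (-0.20 to 0.16) and -0.12 (-0.29 to 0.05). Bdnf, a neurotrophin, differed by 0.23 (-0.10 to 0.56), Gfap, the astrocyte filament, by 0.06 (-0.13 to 0.26), and Ttr, the thyroid hormone carrier of choroid plexus, by 0.14 (-0.10 to 0.38). None of these 7 genes had an unadjusted p under 0.05.

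Microglial markers had a median log2 difference of -0.10, and 4 of 22 had an unadjusted p under 0.05, all lower in sucrose, against 2.1% of all genes in that direction. Aif1, the IBA1 protein of microglia, was at 2.09, 2.19, 1.25 and 2.51 CPM in sucrose libraries, against 2.55, 2.51, 4.13 and 3.48 CPM in water libraries, a log2 difference of -0.63 (-1.24 to -0.02). P2ry12, a purinergic receptor of microglia, and C1qc, a chain of complement C1q, differed by -0.40 and -0.21. None of the 4 kept an unadjusted p under 0.05 without db/+ water replicate 1, in which 8 of the 22 markers were highest of the 8 libraries. Csf1r, the receptor for the microglial survival factor CSF1, lay the other way, at 74.5 to 88.6 CPM in sucrose libraries and 11.3 to 70.3 CPM in water libraries.

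The 20 genes of smallest unadjusted p with an official symbol comprised 9 higher and 11 lower in sucrose. Of these, 15 did not overlap between drinks and 18 were called by DESeq2, a choice made on this same comparison and so a description only. Among the higher ones, Fpgt, which makes GDP-fucose, was at 23.4, 23.8, 22.9 and 26.7 CPM in sucrose libraries, against 11.1, 10.6, 9.31 and 16.7 CPM in water libraries, a log2 difference of 1.02 (SE 0.18). Kcnk1, a potassium leak channel, was at 131, 132, 131 and 130.0 CPM in sucrose libraries, against 115, 112, 110.5 and 118 CPM in water libraries, a log2 difference of 0.21 (SE 0.04). Its libraries were close together within each drink, but it stood at 15.6 CPM in 1 brazzein library. Upp2, a uridine phosphorylase, had a log2 difference of 0.73, Zfp248, a zinc finger protein, 0.70, Morc3, a nuclear ATPase, 0.64, and Capn15, a calpain, 0.46.

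Among the lower ones, Rbm42, an RNA-binding protein, was at 36.1, 24.4, 24.5 and 27.6 CPM in sucrose libraries, against 52.1, 58.7, 46.8 and 55.5 CPM in water libraries, a log2 difference of -0.92 (SE 0.13). The brazzein libraries spanned 16.6 to 63.0 CPM for the same gene, wider than either drink. Ercc5, an endonuclease of DNA repair, had a log2 difference of -0.92, Haus5, a subunit of the augmin complex of the spindle, -1.04, Bbip1, a subunit of the ciliary BBSome, -0.66, and Pgm2l1, which makes glucose 1,6-bisphosphate in brain, -0.22. Ppp1ccb (-0.99) is a near-identical relative of the phosphatase gene Ppp1cc, so its level is uncertain. Il2 was listed at 0 in all 4 sucrose and in 2 water libraries and at 1.04 and 0.91 CPM in db/db water, and no fold is given for it or for Nlrp6, at 0 in 1 sucrose and 3 water libraries.

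**Figure D5:**
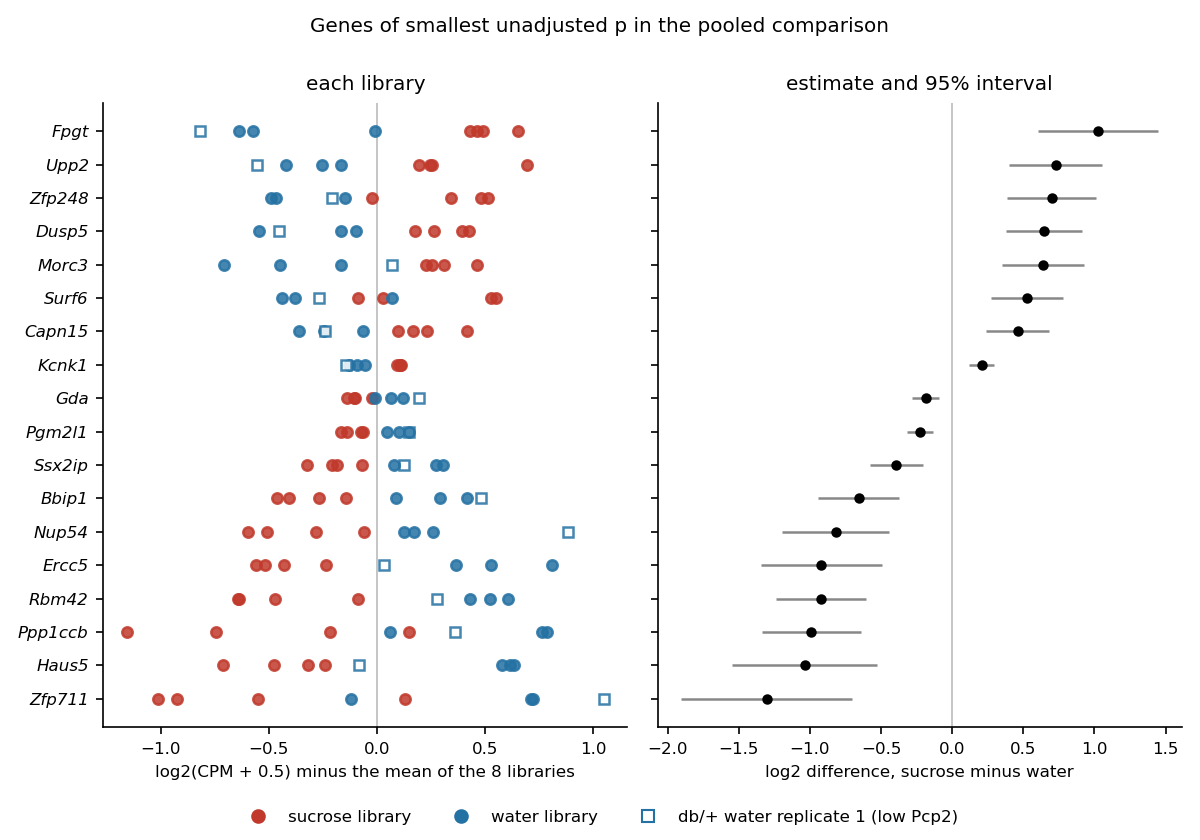
The genes of smallest unadjusted p (y axis; Il2 and Nlrp6, listed at 0 in several libraries, are not drawn), with log2(CPM + 0.5) of each library minus the mean of the 8 on the left and the edgeR log2 difference with its 95% interval on the right. Fpgt (1.02) and Zfp711 (-1.30) are at the ends, and the open square marks db/+ water replicate 1, which is the highest water library for Nup54 and the lowest for Haus5.

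Without the library of low Pcp2, edgeR called 1 of 24298 genes (0.00412%), and 1197 (4.93%) had an unadjusted p under 0.05. The called gene, Taf4, a subunit of the basal transcription factor TFIID, was chosen for the text after its values were seen. It was at 23.8, 25.6, 23.0 and 20.1 CPM in sucrose libraries, against 7.09, 7.18 and 6.57 CPM in the 3 water libraries kept, and 19.0 CPM in the one left out. Its log2 difference was 1.76 (SE 0.09, edgeR quasi-likelihood adjusted p = 0.0275) without that library and 1.27 with it. The brazzein libraries spanned the levels of both drinks, from 7.72 to 23.5 CPM.

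Within genotypes, edgeR called 1 gene in db/db brain (0.00432%), none in db/+ brain (0%) and 1 in the interaction (0.00432%). DESeq2 called 179, 93 and 150 genes. An unadjusted p under 0.05 was found for 1532 genes (6.62%) in db/db brain, 1061 (4.58%) in db/+ brain and 1393 (6.02%) in the interaction. The gene called by edgeR was the same one in db/db brain and the interaction, ENSMUSG00002075410, an identifier that the tables used here do not annotate. Its level was 81.0 and 72.3 CPM in db/db sucrose and 0.285 and 0.225 CPM in db/+ sucrose libraries, against 0.253 and 0.254 CPM in db/db water and 0.254 and 0.221 CPM in db/+ water libraries. The brazzein libraries were at 73.5, 74.9 and 63.8 CPM in 3 cases and at 0.249 CPM in the other, so the high level was not tied to db/db or to sucrose. In db/+ brain the gene nearest to the threshold was Ccnt1, which encodes cyclin T1 (edgeR quasi-likelihood adjusted p = 0.056), at 34.4 and 45.4 CPM in sucrose libraries and 7.00 and 6.94 CPM in water libraries. The db/db water libraries held 38.9 and 40.5 CPM of Ccnt1, and 3 of the 4 brazzein libraries held 6.11 to 8.16 CPM.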

How the data were processed

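Poly(A) RNA libraries from TRIzol-extracted brain were made with a NEBNext Ultra II RNA kit, per the labels' protocols. The kit keeps no strand, so reads of overlapping and antisense genes are mixed. The submitters' processing notes name bcl2fastq and the build GRCm39. Which aligner, counter and annotation were used is not given in the sources. The deposited estimated counts per gene, made by the authors with tools not named, are whole numbers as deposited for 55797 gene names. The deposited series table of coverage signal and FPKM was used only to check files: per library, 60.9% to 65.6% of genes matched the library's own coverage column within 1% of the median ratio of count to coverage, and at most 7.96% another brain column. Its liver columns, 24 in number, were not used.

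Here, R 4.3.3 and edgeR 4.0.16 were used with TMM factors (0.990 to 1.01), filterByExpr by group (minimum count 10, total 15), and quasi-likelihood tests. The pooled fit had terms for genotype and drink and the within-genotype and interaction fit had 4 groups. Adjustment was by Benjamini-Hochberg over all genes at 0.05. CPM use TMM-scaled library sizes. DESeq2 1.42.0, RLE factors, no filter, a replicate block, all 12 brain libraries, leaving out genes listed near 0 (a median of at least 100 counts over the 12 brain libraries and 1 library under 0.1 of it) and leaving out each library were alternatives, and the steps were tested on simulated data. Because counts are estimates, no counting interval is given, and a 0 is described as listed at 0. Named genes are a panel of 33 genes and the 20 of smallest p with an official symbol; list members were named for their role or an unadjusted p under 0.05. The members, lists and tests were chosen with earlier results of these data known.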

Additional observations from a re-analysis of the deposited data

Results flagged for a closer look

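In groups of 4 libraries of 1 drink, 17 of 146 gene and drink combinations had 1 library far from the other 3 (11.6%, where chance gives about 1 in 20), and 10 of the 17 were db/+ water replicate 1. Of those 10, 8 are Pcp2, by which that library was picked, or immediate early genes already known to be high in it, so the excess follows in part from the choice of genes. In that library Pcp2 was low at 17.3 CPM and Haus5 at 2.70 CPM. High there were Arc at 219 CPM, Nr4a1 at 118 CPM, Junb at 105 CPM, Dusp1 at 66.5 CPM, Btg2 at 36.5 CPM, Npas4 at 25.3 CPM, Nup54 at 8.66 CPM and Egr2 at 8.27 CPM. The part of the cerebellar shortfall in the immediate early gene levels of this library was not tested.

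Other libraries stood apart for single genes. In db/+ sucrose replicate 2, Hcrt was high at 6.29 CPM and Slc2a1 low at 97.3 CPM. In db/db sucrose replicate 1, Penk was low at 22.5 CPM and Upp2 high at 19.6 CPM. Pdyn was low at 34.8 CPM in db/+ water replicate 2. In db/db water replicate 2, Per1 was high at 113.8 CPM, and Nlrp6 was at 0.0133 CPM where the other 3 water libraries were listed at 0. The drink difference of ENSMUSG00002075410 in db/db minus that in db/+ was 8.13 on the log2 scale (edgeR quasi-likelihood adjusted p = 0.00102 in the interaction test), a fitted value that depends on the prior count.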

How the results depend on the processing

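The pooled count of 0 genes called by edgeR stayed at 0 with RLE factors, no filter, all 12 brain libraries and without genes listed near 0. It ran from 0 to 1 when each library was left out, the call being Tnr without db/+ sucrose replicate 2 and Taf4 without db/+ water replicate 1. DESeq2 called 41 genes, 26 of which it also called without db/+ water replicate 1, where it called 124. In a fit of 11 libraries chosen after seeing the data, without db/+ water replicate 1 but with brazzein, edgeR called 9 genes, and for 7 of them db/+ water replicate 2 was the lowest of the 8. Within db/db, edgeR called 0 with all 12 brain libraries and 2 to 9 when each library was left out (9 without db/db water replicate 2), and DESeq2 179. Within db/+, edgeR called 1 with no filter and 1 without genes listed near 0 (Ccnt1 in both), 0 to 17 when each library was left out (17 without db/+ water replicate 2), and DESeq2 93. The interaction gave 0 with all 12 brain libraries, 1 to 9 when each library was left out (9 without db/+ water replicate 2), and 150 by DESeq2.

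Across all genes tested, deviations from group means of same-numbered libraries correlated at 0.0126 in db/db and 0.0176 in db/+. With 2 libraries per group this is 1 value per genotype, so it cannot exclude a pairing that affects some genes. With the replicate block, edgeR called 0 genes pooled, 1 in db/db, 0 in db/+ and 1 in the interaction, with 868 at an unadjusted p under 0.05 pooled.

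The named genes and the immediate early genes, 73 in all, gave 1168 pairs of a gene and an alternative. Of these pairs, 66 changed sign and 40 passed the threshold under the alternative, all of them in fits by DESeq2. In edgeR none passed, and the smallest quasi-likelihood adjusted p of these genes in any fit was 0.116, for Dusp5.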

Other observations

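Of 30 genes of fatty acid and cholesterol synthesis, 23 were above 0 in sucrose, with a median log2 difference of 0.07, beside 11376 of 23156 genes above 0 and a median of -0.004. None was called by edgeR or DESeq2, and 3 had an unadjusted p under 0.05, all higher, against 2.21% of all genes in that direction. Within genotypes the counts were unlike. In db/db brain, 27 of 30 were above 0 with a median of 0.13 and 8 had an unadjusted p under 0.05 in the higher direction, against 702 of 23156 genes. In db/+ brain 11 of 30 were above 0 with a median of -0.01. There, 1 had an unadjusted p under 0.05 in each direction, against 586 higher and 475 lower of 23156 genes. The difference between the genotypes was not tested for the list. Fasn, the fatty acid synthase, was at 376, 354, 362 and 376 CPM in sucrose libraries, against 347, 311, 312 and 357 CPM in water libraries, a log2 difference of 0.15 (95% interval 0.01 to 0.28). Scd2, a desaturase of brain lipids, was at 1383 and 1366 CPM in db/db sucrose and 1462 and 1497 CPM in db/+ sucrose libraries, against 1295 and 1252 CPM in db/db water and 1406 and 1441 CPM in db/+ water libraries. Both sucrose libraries of Scd2 were above both water libraries within each genotype, and the log2 difference was 0.08 (0.03 to 0.14). The third, Acaca, which makes malonyl-CoA for Fasn, was at 11.7, 14.4, 4.54 and 56.02 CPM in sucrose libraries, against 4.56, 3.51, 6.47 and 3.66 CPM in water libraries, so its difference rested mostly on 1 db/+ sucrose library.

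Of the 13 transcripts of the mitochondrial genome, 1 was above 0 in sucrose, and the median log2 difference was -0.05. For mt-Nd1, a subunit of complex I chosen here after its values were seen, the sucrose libraries held 5137, 5635, 5626 and 5606 CPM, against 5867, 5750, 5661 and 5819 CPM in water libraries, without overlap, and the log2 difference was -0.07 (-0.15 to 0.01). These transcripts come from 1 shared precursor on each strand and are not independent of each other.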
